A study of Mus musculus with 35 samples.

Results

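Fasted male mice labelled Per2 knockout were compared with fasted male PER2-S662D mice across all genes of the hypothalamus. The comparison took in the 5 fasted libraries labelled Per2 knockout and the 5 fasted S662D libraries, 10 of the 35 libraries of the series, chosen by genotype and feeding label. Every mouse of both groups was of strain B6/J, had been without food for 16 h from lights-on, and was killed at Zeitgeber time 16 (ZT16, hours counted from lights-on). PER2-S662D is a PER2 protein in which a serine that can be phosphorylated is replaced by aspartate. Fasted controls (n = 10), fed controls (n = 10) and fed S662D mice (n = 5), all male B6/J mice killed at the same time of day, served as reference. The ages, the construction of either allele and the number of founder lines are not given in the sources used here. The series has no fed group labelled Per2 knockout.

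PER2 is a core protein of the circadian clock. CLOCK and BMAL1 (gene Arntl) bind E-box sequences and switch on the Per and Cry genes, the Rev-erb genes Nr1d1 and Nr1d2, and the output factors Dbp and Tef. PER and CRY proteins then enter the nucleus and repress CLOCK and BMAL1, while REV-ERB proteins repress Arntl, Npas2, Nfil3 and Cry1 through ROR elements. Phosphorylation sets how stable PER2 is and when it acts. In the hypothalamus the clock meets feeding, through neurons that make hunger peptides such as NPY, orexin (Hcrt) and melanin-concentrating hormone (Pmch).

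Each library held counts of RNA fragments per gene, between 18233548 and 25814045 in the labelled-knockout libraries and between 21615313 and 34081435 in the fasted S662D libraries. Mitochondrially encoded genes took 6.96% to 9.08% of counts in the former and 6.85% to 8.27% in the latter. Levels are given as CPM, counts relative to the scaled library size, and differences as log2 fold changes, labelled knockout minus S662D, where 1 is a doubling. Called means a Benjamini-Hochberg adjusted p below 0.05 over all 18063 genes tested, from the quasi-likelihood test of edgeR. The labels do not say whether mice came from separate litters or days, so the p-values measure only the spread between these mice within groups. That spread was estimated over all 35 libraries of the series. In whole tissue, fewer cells of a type and less RNA per cell cannot be told apart.

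The S662D libraries were of 2 kinds. The library numbers of replicates 2, 3 and 4 end in an extra digit, those of replicates 1 and 5 do not, and no source used here says what the digit stands for. The first principal component of the 10 libraries, with 22.4% of their variance, gave replicates 2, 3 and 4 scores of 18.0 to 28.4. The other 7 libraries, S662D replicates 1 and 5 included, lay between −24.3 and −2.09. The numbers of the labelled-knockout libraries (136 to 140) and of the S662D libraries (171 to 180) do not mix, so a difference of genotype and one of library range cannot be told apart. Values against the S662D libraries with the digit and without it are therefore given separately.

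Per2 itself was examined first. The labelled-knockout libraries held 33.4, 28.2, 29.5, 29.4 and 30.9 CPM of Per2 (chromosome 1, 91415982 to 91459324, minus strand, mm10), and the S662D libraries 16.4, 20.1, 21.3, 22.7 and 18.9 CPM. Every labelled-knockout library lay above every S662D library. Fasted controls ran from 26.1 to 33.1 CPM with a median of 29.0, so Per2 in the libraries labelled knockout lay at the control level and was low only in S662D. That is a log2 difference of 0.61 (SE 0.08, adjusted p 8.51e-07), and the difference from fasted controls was 0.06 (adjusted p 0.935). Whole-gene counts hide which exons were present, and an allele that lacks part of the gene was not examined. Loss of Per2 was thus not seen in the libraries labelled Per2 knockout, and each direction given for them rests on the label.

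Of the 18063 genes tested, 1325 (7.34%) were called, 472 (2.61%) higher and 853 (4.72%) lower in the labelled-knockout libraries. Most differences were small: the median absolute log2 fold change of the called genes was 0.27, 98 exceeded 1.5-fold and 31 (0.172% of genes tested) exceeded 2-fold, 20 higher and 11 lower. In 889 genes (4.92%) the 5 libraries of one group all lay outside the range of the other, and 585 of these were called. Without scaling beyond library size, 1269 genes were called, and 50.1% of them were higher in the labelled-knockout libraries, against 35.6% in the reported fit.

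**Figure D1:**
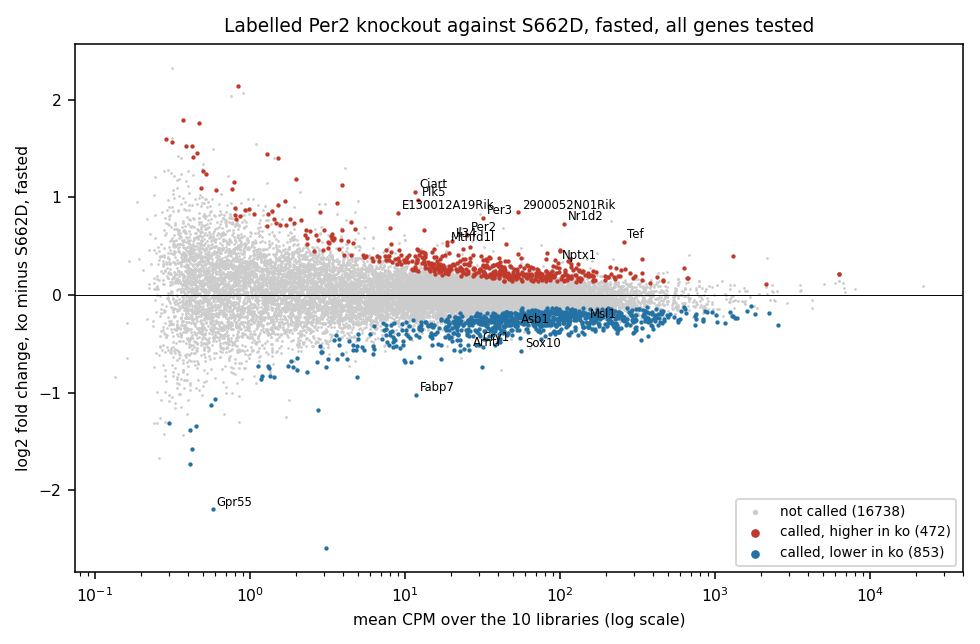
Log2 fold change of every gene tested, labelled Per2 knockout (ko) minus S662D, fasted, against its mean CPM over the 10 libraries on a log axis. Red and blue points are the 472 genes called higher and the 853 called lower, grey points were not called, and the 18 labelled genes kept their call under every alternative that could be fitted for them.

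The count depended on the kind of S662D library. Against the 3 S662D libraries with the digit, 2725 of 18461 genes (14.8%) were called, 1194 (6.47%) higher and 1531 (8.29%) lower. Against the 2 without it, 29 of 18784 (0.154%) were called, 20 (0.106%) higher and 9 (0.0479%) lower, while 1749 had an unadjusted p below 0.05. A total of 22 genes were called against both kinds, 14 higher and 8 lower, with the same sign in both. The S662D libraries themselves differed in 718 genes (3.82%) between the 2 kinds, and 203 of these were among the 1325. For scale, fasted controls 1 to 5 and 6 to 10, which carry the same labels and separate ranges of library numbers, differed in 828 genes (4.58%). Of these, 118 were among the 1325 (8.91% of the 1325 and 14.3% of the 828).

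Single libraries also moved the count. It was 521 without S662D replicate 4, 660 without S662D replicate 2, 822 without S662D replicate 3, 636 without labelled-knockout replicate 2 and 871 without labelled-knockout replicate 4. It rose to 1857 without S662D replicate 1 and 1769 without S662D replicate 5, the 2 that lack the digit. Labelled-knockout replicates 2 and 4 held the highest mitochondrial shares of their group, 9.08% and 8.14%. With both left out, 221 genes were called, 68 higher and 153 lower.

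**Figure D2:**
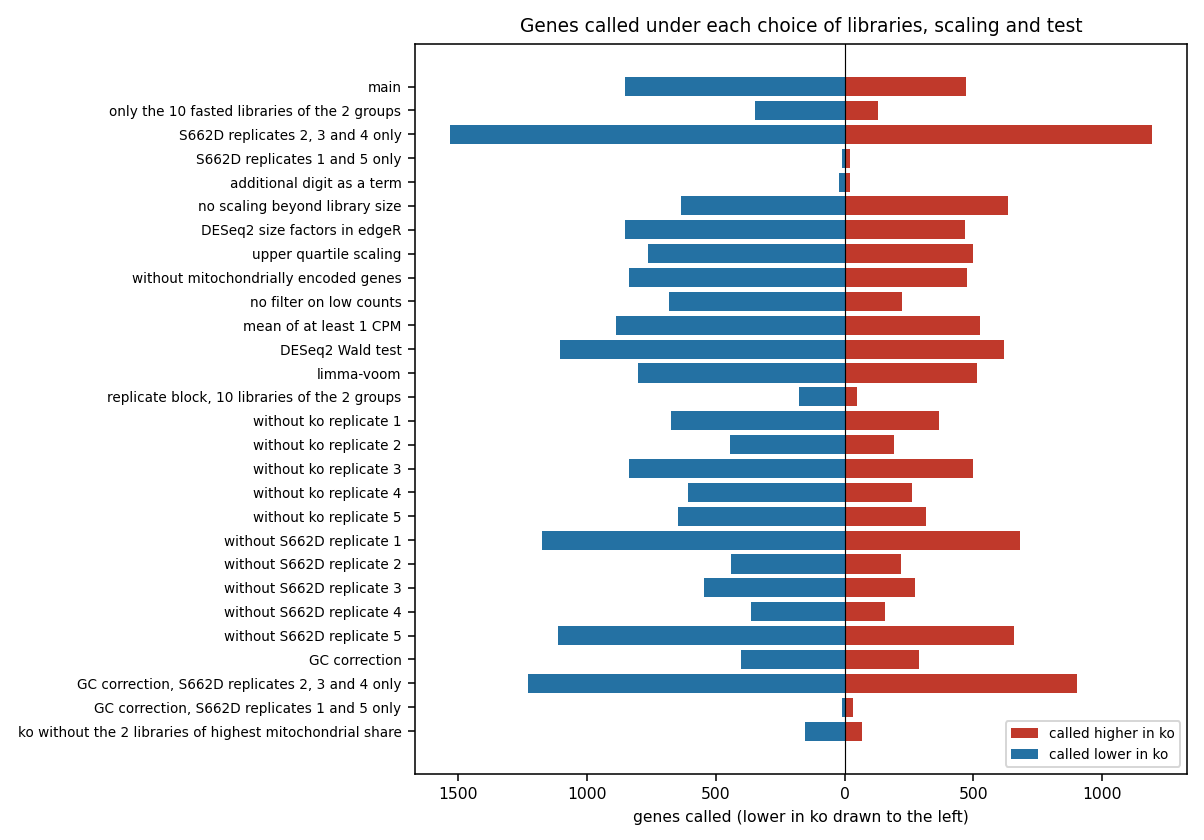
Number of genes called higher (red, to the right) and lower (blue, to the left) in the labelled-knockout libraries (ko) under each choice of libraries, scaling and test. The bars run from 29 genes against S662D replicates 1 and 5 to 2725 against replicates 2, 3 and 4.

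Transcript base composition moved with the direction of the calls. The median GC content of the longest transcript was 44.2% for genes called higher in the labelled-knockout libraries, 56.0% for genes called lower and 49.7% for all genes tested. With genes split into 5 equal groups by GC, the group of lowest GC (22.1% to 43.8%) had 216 called higher and 17 lower. In that of highest GC (55.5% to 75.5%), 35 were called higher and 459 lower. Genes higher in controls 1 to 5 than in controls 6 to 10 had a median GC of 43.3%, and genes lower there 55.7%, a difference between groups of the same genotype. With GC corrected within each library, 690 genes were called, 546 of them among the 1325.

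**Figure D3:**
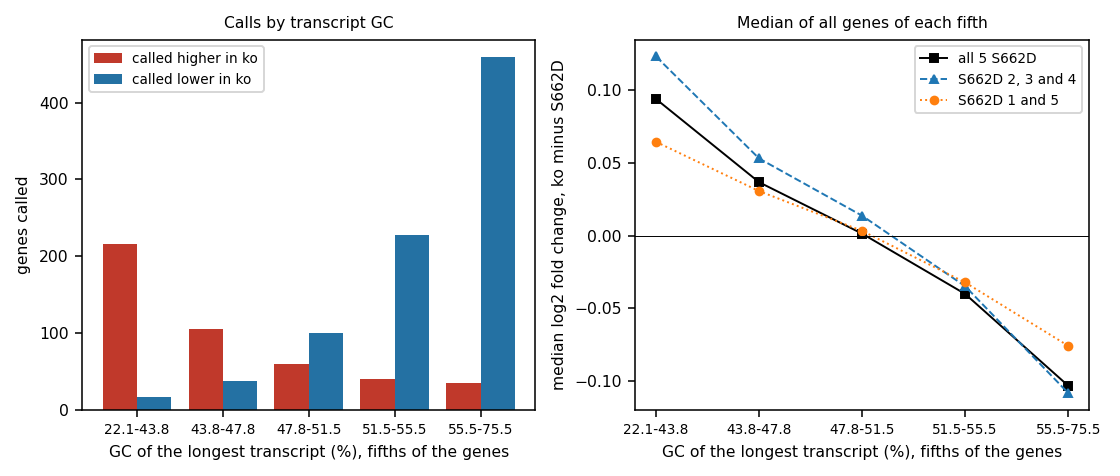
Left, genes called higher (red) and lower (blue) in the labelled-knockout libraries in 5 equal groups of genes by transcript GC content (%). Right, median log2 fold change of all genes in each group against all 5 S662D libraries (squares), replicates 2, 3 and 4 (triangles) and replicates 1 and 5 (circles), which falls from low to high GC in all 3.

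A set of 18 genes kept its call and sign under each of the 27 alternatives that could be fitted for the gene, the split by the digit and the GC correction included. They were chosen after their values were seen, and their number is a description. In the labelled-knockout libraries 11 were higher: Ciart, Plk5, 2900052N01Rik, E130012A19Rik, Per3, Nr1d2, Per2, Il34, Tef, Mthfd1l and Nptx1. The other 7, Msl1, Asb1, Cry1, Arntl, Sox10, Fabp7 and Gpr55, were lower. Clock genes made up 7 of the 18 (Ciart, Per3, Nr1d2, Per2, Tef, Cry1 and Arntl). The clock lists of repressors, activators and outputs held 10, 9 and 13 of the 18063 genes tested. These lists were chosen with earlier results of these data known, so the 7 is a description too. In all 18 the groups did not overlap, beside 4.92% of all genes. None was called between the 2 kinds of S662D library, where 3.82% of genes were. The way the 18 were chosen favours both properties, so neither is a separate result. Of the 18, 2900052N01Rik and Sox10 were also called between the 2 sets of fasted controls, where 4.58% of all genes were.

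**Figure D4:**
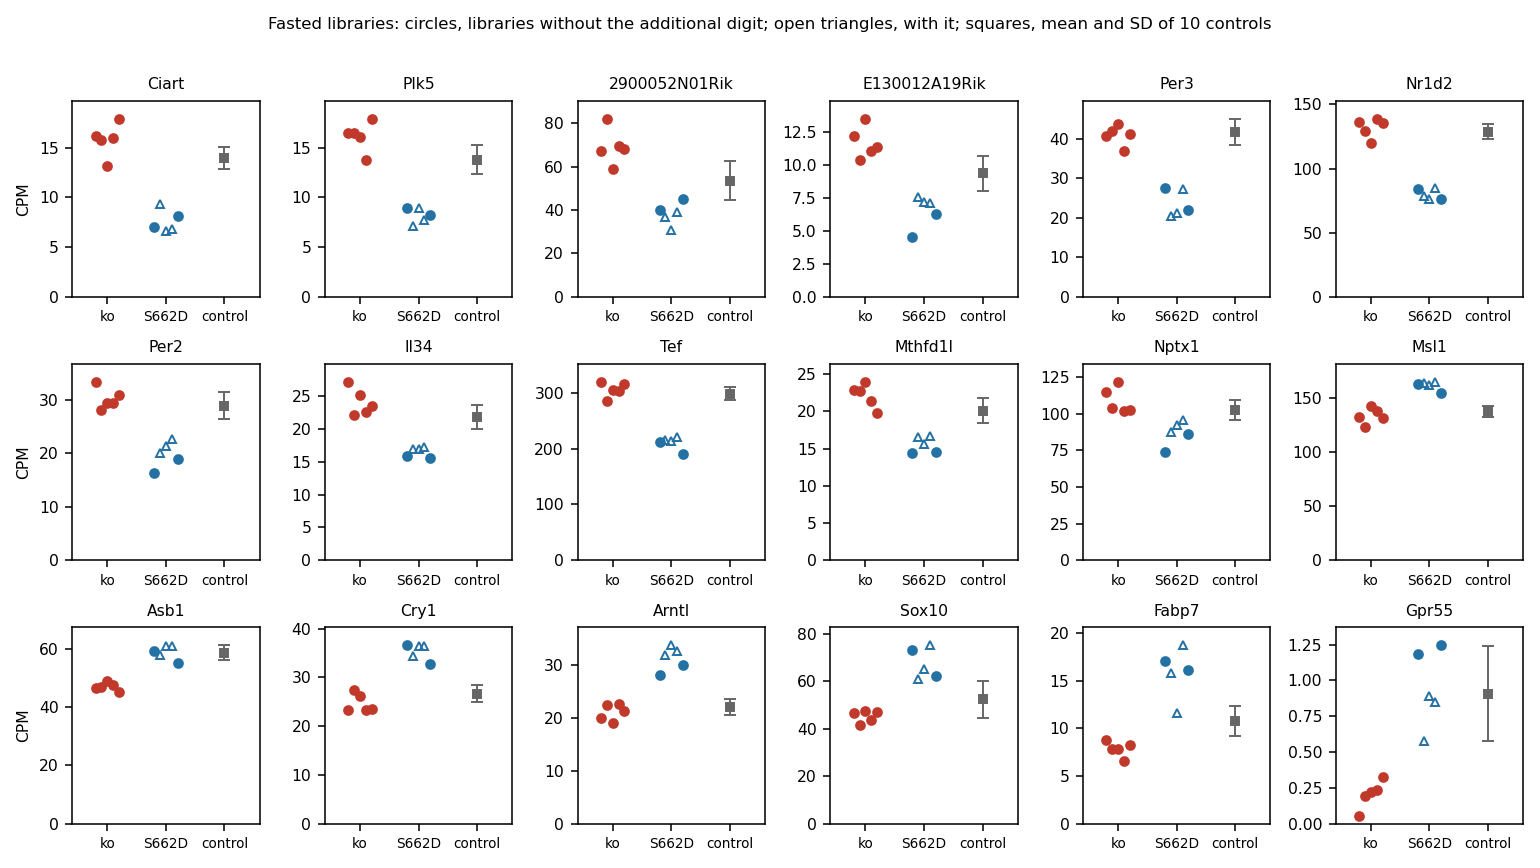
CPM of the 18 genes in each labelled-knockout (ko, red) and S662D (blue) library, fasted. Open triangles are S662D replicates 2, 3 and 4, filled circles the libraries without the additional digit, and squares the mean and SD of 10 fasted controls; the 5 red points lie apart from the 5 blue ones in each panel.

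Promoter sequences are shown for the clock genes that differed and hold a match to 1 of 3 motifs, and for Fabp7, because the transcription factors of the clock act at E-boxes, D-boxes and ROR elements. Each is the 250 bases before a RefSeq transcript start (GRCm38.p6), written 5′ to 3′ on the gene's strand. Capitals mark a match on either strand to the E-box CACGTG, to the D-box TTATGTAA or TTACGTAA, or to the ROR element TAGGTCA or TGGGTCA, which reads TGACCTA or TGACCCA on the other strand. The 3 motifs do not overlap each other here. Ciart and Tef were higher in the labelled-knockout libraries and hold E-boxes, as does Cry1, which was lower. Per3 was higher and holds a pair of D-boxes. Nfil3 and Fabp7 were lower and hold a ROR element. The promoters of Nr1d2, Arntl and Npas2, which also differed, hold none of the 3 in this window. Per2 had no entry among the promoters used, so its promoter was not searched. Matches also occur in genes that were not called: E-boxes for Per1, Bhlhe41, Cbs, Tspan4 and Sde2, and a ROR element for Leo1.
Ciart, chr3:95882229-95882478, minus strand: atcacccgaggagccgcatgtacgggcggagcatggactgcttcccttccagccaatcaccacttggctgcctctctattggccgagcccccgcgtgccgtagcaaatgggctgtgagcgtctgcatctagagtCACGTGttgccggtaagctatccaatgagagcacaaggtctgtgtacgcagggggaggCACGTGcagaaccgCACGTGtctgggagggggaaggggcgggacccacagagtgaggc
Tef, upstream start, chr15:81802423-81802672, plus strand: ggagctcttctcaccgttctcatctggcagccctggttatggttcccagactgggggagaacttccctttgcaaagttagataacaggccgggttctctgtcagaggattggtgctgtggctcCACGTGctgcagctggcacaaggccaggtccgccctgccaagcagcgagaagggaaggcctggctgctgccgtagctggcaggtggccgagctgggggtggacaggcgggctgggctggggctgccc
Tef, downstream start, chr15:81811164-81811413, plus strand: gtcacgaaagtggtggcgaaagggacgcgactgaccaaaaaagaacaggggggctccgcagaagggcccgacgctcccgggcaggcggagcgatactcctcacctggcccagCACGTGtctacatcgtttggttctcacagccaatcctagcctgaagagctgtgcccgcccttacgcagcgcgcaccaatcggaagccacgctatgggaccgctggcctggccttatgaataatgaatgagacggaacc
Cry1, chr10:85185055-85185304, minus strand: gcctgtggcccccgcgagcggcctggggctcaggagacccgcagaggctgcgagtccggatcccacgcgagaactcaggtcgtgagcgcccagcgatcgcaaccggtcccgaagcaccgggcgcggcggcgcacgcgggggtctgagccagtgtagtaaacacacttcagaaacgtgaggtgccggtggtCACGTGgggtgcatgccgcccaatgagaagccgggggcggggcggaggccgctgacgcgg
Per3, chr4:151044666-151044915, minus strand: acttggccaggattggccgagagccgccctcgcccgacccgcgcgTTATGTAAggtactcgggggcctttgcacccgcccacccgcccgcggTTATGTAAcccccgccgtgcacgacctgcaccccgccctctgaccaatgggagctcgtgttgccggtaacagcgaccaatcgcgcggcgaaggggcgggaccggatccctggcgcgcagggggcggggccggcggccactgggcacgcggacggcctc
Nfil3, chr13:52981040-52981289, minus strand: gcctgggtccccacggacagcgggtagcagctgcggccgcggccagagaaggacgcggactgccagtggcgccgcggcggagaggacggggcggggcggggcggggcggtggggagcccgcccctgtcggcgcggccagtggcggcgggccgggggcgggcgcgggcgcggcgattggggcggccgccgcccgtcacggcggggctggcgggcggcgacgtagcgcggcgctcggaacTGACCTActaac
Fabp7, chr10:57784673-57784922, plus strand: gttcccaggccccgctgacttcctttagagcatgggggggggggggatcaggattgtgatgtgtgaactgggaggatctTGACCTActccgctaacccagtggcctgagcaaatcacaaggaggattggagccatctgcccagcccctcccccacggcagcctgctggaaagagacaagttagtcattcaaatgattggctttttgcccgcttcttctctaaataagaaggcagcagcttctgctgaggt

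The D-boxes of Per3 begin 205 and 158 bases before its start, the ROR element of Nfil3 12 bases and that of Fabp7 171 bases before theirs. The E-boxes of Ciart begin 116, 58 and 44 bases before its start, and that of Cry1 60 bases before its start. Those of Tef lie 127 and 138 bases before the upstream and the downstream start. An E-box was found in 6.02% of the 32851 promoters searched, a D-box in 0.931% and a ROR element in 5.38%. Over the 15695 promoters of genes tested, the shares were 7.77%, 0.669% and 4.43%. Among promoters of genes called higher in the labelled-knockout libraries, 44 of 430 (10.2%) held an E-box, and among those of genes called lower 69 of 870 (7.93%), the latter near the share over genes tested. A D-box was in 7 of the 430 (1.63%) and 4 of the 870 (0.46%). For the ROR element it was 20 of the 430 (4.65%) and 48 of the 870 (5.52%), both near the 4.43% of genes tested. Among promoters of the 22 genes called against both kinds of S662D library, 1 of 20 (5.0%) held a ROR element, that of Fabp7. A match is a run of letters and shows no binding.

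Of the 10 clock repressors tested, which act against CLOCK and BMAL1 or, as REV-ERB proteins, at ROR elements, 4 were called higher in the labelled-knockout libraries and 1 lower, against 7.34% of all genes. The same 5 were called against S662D libraries with the digit and against those without it. The median log2 fold change of the list was 0.07, beside 0.01 for all genes.

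Ciart, which encodes a repressor of CLOCK and BMAL1, had the largest difference of the list. The labelled-knockout libraries held 16.2, 15.7, 13.1, 15.9 and 17.9 CPM and the S662D libraries 7.05, 9.28, 6.60, 6.85 and 8.09 CPM. Ciart thus differed by 1.05 on the log2 scale (SE 0.10, adjusted p 2.66e-09), a level 2.08-fold that of S662D. The lowest labelled-knockout library lay well above the highest S662D library, and the 10 fasted controls, 12.4 to 15.7 CPM, lay on the labelled-knockout side. Of its 50-base words, 11.9% also occur in transcripts of other genes, which makes its counts uncertain.

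Per3, a relative of Per2 in the same repressor complex, held 40.6, 41.9, 43.6, 36.8 and 41.0 CPM in the labelled-knockout libraries and 27.4, 20.3, 21.2, 27.3 and 21.9 CPM in S662D. The S662D libraries were low without overlap, and fasted controls (38.7 to 49.2 CPM) covered most of the labelled-knockout range. Per3 differed by 0.79 on the log2 scale (SE 0.08, adjusted p 2.66e-09). Nr1d2, which encodes REV-ERBβ, held 136, 129, 120.3, 139 and 136 CPM against 83.7, 78.8, 76.6, 85.1 and 76.0 CPM. The 5 S662D libraries all lay below the 5 others and below the control range of 122 to 143 CPM. Nr1d2 differed by 0.72 (log2, SE 0.05), with the smallest adjusted p of all genes tested in the reported fit, 1.22e-12. The difference was 0.73 against S662D libraries with the digit and 0.72 against those without.

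Cry1, the partner of PER proteins in repression, went the other way. The labelled-knockout libraries held 23.2, 27.4, 26.2, 23.3 and 23.6 CPM and the S662D libraries 36.6, 34.3, 36.4, 36.5 and 32.8 CPM. All 5 S662D libraries were higher, and the control range of 24.7 to 29.9 CPM overlapped the labelled-knockout range only. Cry1 differed by −0.51 (log2, SE 0.06, adjusted p 1.26e-07). The other repressors did not pass the test: the log2 fold change was 0.11 for Per1, −0.10 for Cry2, −0.09 for Nr1d1, 0.01 for Bhlhe40 and 0.02 for Bhlhe41.

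Among the clock activators and genes driven through ROR elements, 9 of 11 members had enough counts to be tested (E2f8 and Elovl3 did not). None was called higher and 3 were called lower, beside 4.72% of all genes: Arntl, Npas2 and Nfil3. The list's median was −0.21. Arntl, the gene of BMAL1, held 20.0, 22.4, 19.1, 22.7 and 21.3 CPM in the labelled-knockout libraries and 28.0, 31.9, 33.7, 32.6 and 30.1 CPM in S662D. The groups did not overlap, and controls (20.3 to 24.1 CPM) lay with the labelled knockout. Its log2 difference was −0.56 (SE 0.06, adjusted p 1.26e-07).

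Npas2, a relative of CLOCK that pairs with BMAL1, and Nfil3, a repressor that competes at D-boxes, moved with the kind of S662D library. Npas2 held 9.97 to 15.9 CPM in the labelled-knockout libraries. Its S662D libraries with the digit held 23.9, 24.2 and 23.7 CPM, and those without it 15.5 and 17.1 CPM, the lower of which falls inside the labelled-knockout range. Over all 5 libraries Npas2 differed by −0.65 (log2, adjusted p 0.00115), by −0.85 against the libraries with the digit and by −0.31 (adjusted p 0.477) against those without. Nfil3 differed by −0.35 (adjusted p 0.0316), by −0.48 with the digit and by −0.13 (adjusted p 0.809) without it, and lost its call without labelled-knockout replicate 1, 3 or 4 or S662D replicate 2, 3 or 4 (log2 −0.35 to −0.30). Clock, Rora and Rorb had log2 fold changes of −0.01, −0.21 and 0.04 and were not called.

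Of 13 genes listed as clock outputs, only Tef was called under the reported settings. That is 7.69% of the list, near the 7.34% of all genes. Tef encodes a D-box activator and held 319.7, 286, 305, 303 and 316 CPM in the labelled-knockout libraries against 212, 215, 214, 221 and 191 CPM in S662D. Each S662D library lay below every labelled-knockout library and below the control range of 281 to 318 CPM. This is a log2 difference of 0.54 (SE 0.04, adjusted p 2.54e-12). Its relatives Dbp (0.17, adjusted p 0.492) and Hlf (−0.04, adjusted p 0.758) were not called, and 18.0% of the exon bases of Dbp overlap another gene. Wee1, a kinase that delays entry into mitosis, was at 0.22 (adjusted p 0.0536) and was called higher in 8 of the 27 alternatives.

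Clock differences of the same kind were present in fed mice, which share no library with this comparison. Fed S662D libraries were numbered 171 to 175, next to the fasted S662D libraries, and replicates 2, 3 and 4 again carry the digit. Fed controls were numbered 121 to 125 and 141 to 145. Genotype and library range thus cannot be told apart there either. Between fed S662D and fed control mice, 847 genes (4.69%) passed the test, of which S662D held 563 (3.12%) at a higher and 284 (1.57%) at a lower level. Of these, 352 were also among the 1325, which is 41.6% of the 847 and 26.6% of the 1325. All 352 had the corresponding direction, 259 higher in S662D in both settings and 93 lower in both. Nr1d2 was at 89.8 ± 7.78 CPM (SD, n = 5) in fed S662D and 133 ± 7.57 CPM (SD, n = 10) in fed controls. Arntl, the opposite arm of the loop, was at 33.5 ± 1.42 CPM (SD, n = 5) and 22.9 ± 1.61 CPM (SD, n = 10). Of the 18 genes above, 14 were called fed with the corresponding direction, 11 of them also with the fed S662D libraries that lack the digit; Nptx1, Asb1, Sox10 and Gpr55 were not called fed. Within the fed comparison the count was 2863 with the digit and 16 without it.

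Fabp7 encodes the brain fatty acid-binding protein of radial glia and astrocytes. The labelled-knockout libraries held 8.74, 7.81, 7.87, 6.58 and 8.20 CPM and the S662D libraries 17.0, 15.8, 11.6, 18.7 and 16.1 CPM. The groups did not overlap, and the controls, 8.64 to 13.8 CPM with a median of 10.9, lay between them and touched both. Fabp7 differed by −1.02 on the log2 scale (SE 0.12, adjusted p 2.56e-07), by −0.96 against S662D libraries with the digit and by −1.09 against those without. Against fasted controls it was −0.46 (adjusted p 0.251) for the labelled knockout and 0.56 (adjusted p 0.00103) for S662D, with the same 10 controls in both. In fed mice S662D held 23.7 ± 3.12 CPM (SD, n = 5) and controls 12.4 ± 1.58 CPM (SD, n = 10). Fabp7 was the only 1 of 6 fatty acid-binding protein genes tested to be called, where 7.34% of all genes were. Of 14 astrocyte markers, whose summed level was 6148 to 6901 CPM in the labelled-knockout libraries and 6189.5 to 7305 CPM in S662D, only Sox9 was called, at −0.42.

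Plk5, a member of the polo-like kinase family, held 16.5, 16.5, 16.0, 13.8 and 17.9 CPM in the labelled-knockout libraries and 8.91, 7.11, 8.96, 7.74 and 8.24 CPM in S662D. The S662D libraries were all low, and controls (11.4 to 15.5 CPM) overlapped the labelled-knockout range only. Plk5 differed by 0.97 (log2, SE 0.12, adjusted p 8.51e-07). Il34, a ligand of the receptor that maintains microglia, differed by 0.55, Mthfd1l, a mitochondrial folate enzyme, by 0.51 and Nptx1, a synaptic pentraxin, by 0.33. None of 16 microglia and macrophage markers was called. Msl1, a subunit of a histone acetyltransferase complex, was lower by a smaller step, at −0.28: 123 to 142 CPM against 154 to 165 CPM.

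Glt8d2, which encodes a glycosyltransferase-like protein, was high by fold but low in level. It held 2.63, 2.27, 1.79, 1.89 and 2.50 CPM in the labelled-knockout libraries and 0.95, 0.77, 0.76, 0.57 and 1.04 CPM in S662D, without overlap. Glt8d2 differed by 1.40 (log2, SE 0.20, adjusted p 2.52e-05), by 1.65 against S662D with the digit and by 1.14 (adjusted p 0.0561) against S662D without it. In fed mice S662D minus control was −0.85 (adjusted p 0.00545). BC030499, a gene model also among the largest rises, was at 5.43 ± 0.78 CPM (SD, n = 5) against 2.45 ± 0.67 CPM (SD, n = 5), 1.13 apart on the log2 scale. Where the mean reached 1 CPM, Gm10800 had the largest fall, at −2.59, whose S662D libraries spread over 5.32 ± 4.68 CPM (SD, n = 5). Other genes share 27.2% of its 50-base words, and against S662D libraries without the digit its value was 0.42. Its call was lost in 5 of 10 leave-one-out fits.

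Of 7 hunger peptides and related genes tested, 3 were called higher in the labelled-knockout libraries (Npy, Hcrt and Pmch) and none lower, beside 2.61% of all genes called higher, with a list median of 0.38. None was called against the S662D libraries without the digit, where the median was 0.29. Npy, the peptide of arcuate hunger neurons, held 14.2, 15.2, 14.9, 16.2 and 16.4 CPM in the labelled-knockout libraries and 10.1, 15.1, 11.3, 10.4 and 11.1 CPM in S662D. S662D replicate 2 lay inside the labelled-knockout range and the other 4 lay below it, while controls spread over both, from 9.43 to 17.1 CPM. Npy differed by 0.41 (log2, SE 0.11, adjusted p 0.0220), while controls 1 to 5 and 6 to 10, of 1 genotype, differed by 0.36 (adjusted p 0.0390). Against S662D with the digit Npy was at 0.33 (adjusted p 0.0910) and against S662D without it at 0.54 (adjusted p 0.111), and neither was called. The value over all 5 was 0.39 (adjusted p 0.0557) without labelled-knockout replicate 4, 0.39 (adjusted p 0.0531) without replicate 5 and 0.37 (adjusted p 0.0776) without S662D replicate 4.

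Hcrt, the orexin gene, held 101 to 132 CPM in the labelled-knockout libraries and 77.2 to 97.3 CPM in S662D, and its groups did not overlap. Hcrt differed by 0.45 (log2, adjusted p 0.0158), by 0.40 (adjusted p 0.0600) without labelled-knockout replicate 2 and by 0.44 (adjusted p 0.0515) without S662D replicate 4. Pmch differed by 0.46 (adjusted p 0.0405) with overlapping groups, and it lost its call without labelled-knockout replicate 1, 2, 4 or 5 or S662D replicate 2, 3 or 4 (log2 0.35 to 0.48). Of its exon bases 58.1% overlap another gene. Among 12 satiety genes none was called, and of 18 other hypothalamic peptides only Tac1 was, at 0.20, a call lost in 5 of 10 leave-one-out fits. Summed, these peptides made up 1651 to 1785 CPM in the labelled knockout and 1567 to 1757 CPM in S662D, so peptides of the labelled tissue were detected in all 10 libraries. None of 12 suprachiasmatic peptides and markers was called.

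Of 17 endothelial and pericyte markers tested, 5 were called lower in the labelled-knockout libraries (Pecam1, Cldn5, Flt1, Cdh5 and Pdgfrb), beside 4.72% of all genes, with a median of −0.25. With GC correction 3 were lower. Against S662D with the digit 10 were lower, beside 8.29% of all genes, and against S662D without it 0 were called, with a median of −0.02. The summed level was 535 to 585 CPM in the labelled knockout and 536 to 712 CPM in S662D. Cldn5, the tight-junction claudin of brain vessels, held 24.3 to 28.7 CPM against 30.6 to 43.7 CPM without overlap, a log2 fold change of −0.53. It was −0.54 against S662D with the digit and −0.51 (adjusted p 0.0924) against S662D without it. Pecam1 was at −0.28 without S662D replicate 3 (adjusted p 0.0550) or 4 (adjusted p 0.0701) and was then not called.

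Of 19 oligodendrocyte and myelin genes, 4 were called lower (Sox10, Olig1, Olig2 and Cspg4), beside 4.72% of all genes, all regulators or precursor markers rather than myelin proteins. With GC correction 1 was lower, and Olig1 and Cspg4 lost their calls. Sox10, a transcription factor of the whole lineage, was the only 1 of them called against S662D libraries without the digit. It held 46.6, 41.5, 47.4, 43.6 and 47.2 CPM in the labelled knockout and 73.4, 61.1, 65.2, 75.2 and 62.2 CPM in S662D. The groups were apart, and controls ranged from 43.0 to 64.0 CPM across both. Sox10 differed by −0.58 (log2, SE 0.09, adjusted p 6.97e-05), while controls 1 to 5 and 6 to 10 differed by −0.33 (adjusted p 0.00882). Olig1 differed by −0.33, by −0.46 against S662D with the digit and by −0.10 (adjusted p 0.714) against S662D without it. Cspg4 was at −0.33 (adjusted p 0.0707) without S662D replicate 4. The list's summed level was 9524 to 10829 CPM against 10457 to 11026 CPM.

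Of 25 synapse genes, 5 were called lower (Syn1, Shank1, Shank3, Camk2b and Nlgn2) and 1 higher (Gria2), beside 4.72% and 2.61% of all genes, and none against S662D without the digit. Gria2, at 0.26, differed by 0.24 (adjusted p 0.0364) between the 2 sets of controls. With GC correction 2 were lower, and Shank1, Shank3 and Nlgn2 lost their calls. Shank1, a scaffold of the postsynaptic density, was at 272 ± 10.8 CPM (SD, n = 5) against 349.8 ± 36.4 CPM (SD, n = 5), a difference of −0.36 on the log2 scale. Fatty acid synthesis and desaturation gave 4 of 24 lower (Fasn, Scd2, Fads6 and Srebf1), beside 4.72% of all genes, and none higher. The list's median was −0.05, and −0.01 against S662D without the digit. Fads6, a desaturase-like gene, was at −0.29 and Fasn, fatty acid synthase, at −0.27, and neither was called against S662D without the digit (adjusted p 0.162 and 0.708). Fasn was not called in any of the 3 GC-corrected fits. Without S662D replicate 4, Shank3 was at −0.39 (adjusted p 0.0534) and Scd2 at −0.15 (adjusted p 0.0629). Sterol synthesis gave 2 higher and 2 lower of 24, beside 2.61% and 4.72% of all genes.

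The interferon and antigen presentation genes had the lowest median of all lists, −0.45. Of 22, 3 were called lower (Isg15, Oasl2 and Bst2), beside 4.72% of all genes. None was called against S662D without the digit, though the median there was −0.50, beside −0.27 against S662D with it. In fed mice the list's median, S662D minus control, was 0.05. The calls of Isg15 and Bst2 were lost in 9 and 4 of 10 leave-one-out fits. Controls 1 to 5 and 6 to 10, of the same genotype, differed in the same list by a median of −0.37. Oasl2, an interferon-induced gene, held 3.81, 2.89, 3.15, 3.51 and 4.40 CPM in the labelled knockout and 5.59, 6.03, 5.08, 7.32 and 7.68 CPM in S662D. The groups did not overlap, and controls (2.80 to 6.67 CPM) covered most of both. Oasl2 differed by −0.84 (log2, adjusted p 0.00225), and by −0.91 (adjusted p 0.0608) against S662D without the digit.

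Other lists had few calls. Over all genes, 2.61% were called higher and 4.72% lower. Among 22 kinases, phosphatases and ubiquitin ligases that act on PER2, Sirt1 was higher (0.28) and Gsk3a lower (−0.22). Neither was called against S662D without the digit, and the calls were lost in 5 and 4 of 10 leave-one-out fits. Of the exon bases of Gsk3a, 28.3% lie in another gene. Of 21 glucocorticoid-induced genes, Mt1 was higher (0.36) and Mt2 lower (−0.77, with 73.5% of its exon bases in another gene), calls lost in 4 and 6 of 10 leave-one-out fits. Of 18 early genes of neuronal activity only Jun was called, at −0.45 (lost in 3 of 10 leave-one-out fits), and of 23 regional transcription factors of the hypothalamus only Nkx2-2, at −0.43. Between the 2 sets of controls, of 1 genotype, Jun differed by −0.37 (adjusted p 0.0428), Nkx2-2 by −0.38 (adjusted p 0.0215) and Gsk3a by −0.18 (adjusted p 0.0483). Ribosomal protein genes gave 2 higher of 37, Rps4x and Rpl7, which share 41.2% and 21% of their 50-base words with transcripts of other genes. The list of heat-shock and cold-inducible genes gave 2 lower of 16, Dnajb1 and Cry1, the latter the clock repressor already counted above. Fibroblast and collagen genes gave 3 lower of 19 (Col4a1, Cd248 and Mmp14). Leave-one-out fits lost the calls of Dnajb1 and Col4a1 in 7 of 10 and of Cd248 in 6 of 10. The fibroblast list as a whole had a median of 0.12, with 12 of 19 members above 0. Of 15 mitochondrially encoded genes 1 was called higher, mt-Co3 at 0.21. Other genes share 99.9% of its 50-base words, its call was lost in 6 of 10 leave-one-out fits, and with a GC correction against S662D replicates 1 and 5 alone its value was −0.0071. None of 30 nuclear respiratory chain genes or 14 tanycyte and ependyma genes was called.

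Markers of tissue next to the hypothalamus varied between mice. The 14 choroid plexus genes summed to 55.8 to 335 CPM in the labelled knockout and 48.4 to 345 CPM in S662D, and none was called. Thalamic markers gave 2 lower of 16, Tcf7l2 and Lef1, beside 4.72% of all genes. The call of Lef1 was lost in 5 of 10 leave-one-out fits. Of 13 pituitary markers 7 were tested, with Gh and Prl among those that had too few counts, and only Pcsk1n, which neurons also express, was called, at −0.29. The other 6 pituitary markers tested had positive values, the list's median was 0.85, and 3 of the 7 had an unadjusted p below 0.05. The part of differing tissue in the results was not tested.

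Genes near Per2 were examined because the label names a knockout of that gene. Within 10 Mb of Per2, 18 of 132 genes tested (13.6%) were called, 7 higher and 11 lower. The share was 5.95% of the 1009 other genes of chromosome 1 and 7.28% of all other genes. Against S662D libraries without the digit, 2 of the 132 were called, Gpr55 and Asb1.

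Gpr55 (85938318 to 85961007), which encodes a receptor for lysophospholipids, held 0.05, 0.19, 0.22, 0.24 and 0.33 CPM in the labelled-knockout libraries. The S662D libraries held 1.19, 0.58, 0.89, 0.85 and 1.24 CPM and the controls 0.48 to 1.38 CPM. The labelled-knockout libraries were thus below all others, at a level of few fragments per library. Gpr55 differed by −2.19 (log2, SE 0.39, adjusted p 0.000529). Asb1 (91540544 to 91559589), a subunit that selects targets for ubiquitin ligases, begins 0.081 Mb beyond Per2. It held 46.4, 46.9, 48.8, 47.6 and 45.0 CPM against 59.2, 57.7, 60.9, 60.8 and 55.2 CPM in S662D and 55.3 to 64.6 CPM in controls. Here too the labelled knockout stood below both other groups, at a log2 difference of −0.32 (SE 0.05, adjusted p 1.61e-05).

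Bok, a BCL2 family gene 2.23 Mb beyond Per2, was higher. It held 103, 77.9, 93.1, 97.5 and 103 CPM in the labelled knockout and 60.9, 73.8, 71.2, 74.5 and 71.6 CPM in S662D. The lowest labelled-knockout library lay just above the highest S662D library and inside the control range of 50.5 to 79.0 CPM. Bok differed by 0.43 (log2, adjusted p 0.00775). Ano7, of the anoctamin family, was at 0.98 ± 0.25 CPM (SD, n = 5) against 1.73 ± 0.22 CPM (SD, n = 5), a difference of −0.83 on the log2 scale. Neither was called against S662D without the digit (0.52, adjusted p 0.149, for Bok and −0.90, adjusted p 0.0924, for Ano7), where the differences were no smaller.

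These 4 genes are 4 of the 5 (0.0277% of 18063) that differed between the labelled-knockout libraries and fasted controls, a contrast that shares libraries with the present one. The remaining gene is Rgma on chromosome 7, and 1097 genes had an unadjusted p below 0.05 there. Between S662D and fasted controls, 1007 genes (5.57%) were called. Of the 18 genes that kept their call throughout, 16 were called between S662D and controls, all except Asb1 and Gpr55, and those 2 were the ones called between the labelled knockout and controls.

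**Figure D5:**
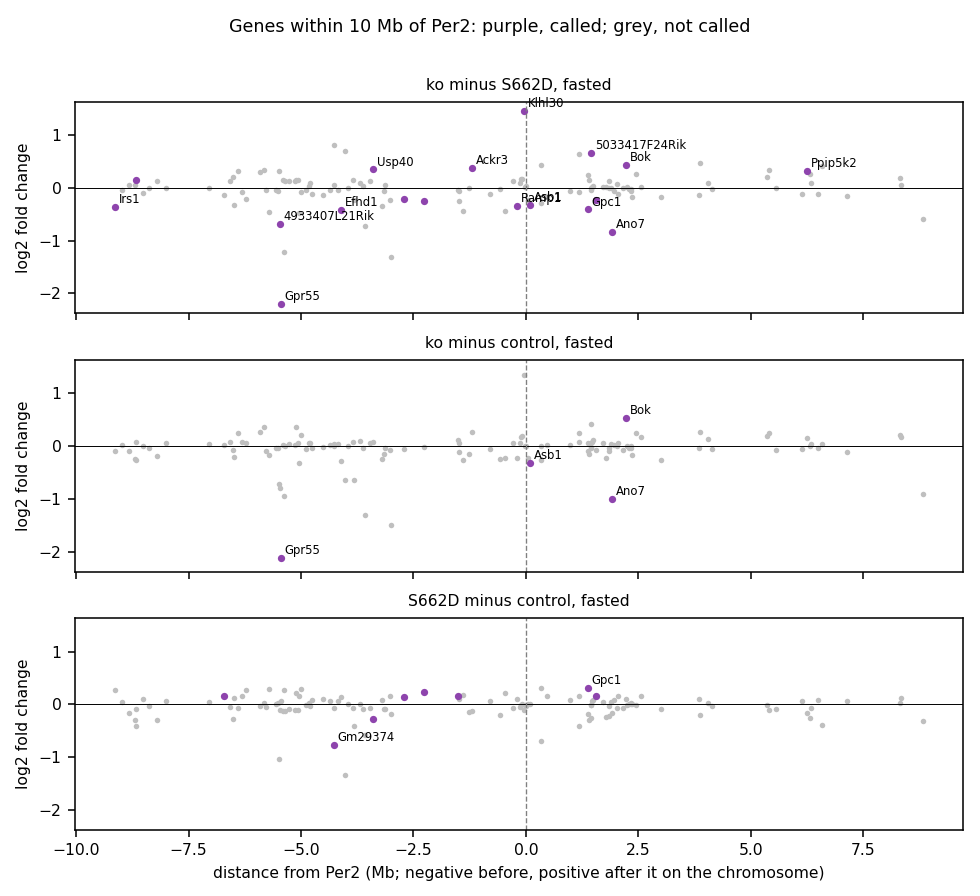
Log2 fold change of the 132 genes tested within 10 Mb of Per2 against their distance from it in Mb, for labelled knockout (ko) minus S662D, ko minus fasted control and S662D minus fasted control. Purple points were called: 18 in the top panel, and 4 (Gpr55, Asb1, Ano7 and Bok) in the middle panel.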

How the data were processed

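RNA from the hypothalamus was measured in 35 libraries, 1 per mouse. The authors deposited raw counts per gene. featureCounts 2.0.1 produced them, per the file headers, using GENCODE vM12 gene names (mm10), every alignment of multi-mapping reads, and no strand option. The submitters' processing notes also name STAR 2.7.10b and Subread. Overlapping and near-identical genes are therefore uncertain: 20 of 114 named genes share at least 10% of their exon bases or 50-base words with another gene.

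Genes were kept with filterByExpr by group (minimum count 10) and scaled with TMM. A model with a mean for each group was fitted to all 35 libraries in edgeR 4.0.16 (R 4.3.3, glmQLFit with robust estimation, glmQLFTest, Benjamini-Hochberg over all genes). The common biological coefficient of variation was 0.0900, and depth is given in the report. CPM are edgeR's, on the scaled library sizes. On simulated counts for the labelled knockout against S662D, fasted, with 17910 genes tested, 63% of genes changed by 0.5 (log2) and 89% of those changed by 1 were recovered. Of those calls 6.17% were unchanged genes. The simulated counts held no difference between kinds of S662D library, between sets of controls or by GC content. The 6.17% is therefore not the error share of the reported calls.

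The members, gene lists and tests were chosen with earlier results of these data known, and the lists are described by counts and medians. Named genes were the 5 that mark the comparison, the 10 largest called rises and falls with a mean of at least 1 CPM, up to 3 called genes per list and the clock lists. The 18 genes, the genes near Per2 and the other called members named in a list were chosen after their values were seen. Within each of the 2 groups, no pair of libraries agreed within sampling noise (lowest chi-square per degree of freedom 4.46). The correlation of same-numbered libraries was −0.14 to 0.02, so the numbers were not taken as pairs. A total of 27 alternatives were run, with DESeq2 1.42.0 and limma 3.58.1 among them. The GC corrections (20 bins) and the fit without 2 labelled-knockout libraries were chosen after seeing the data. Promoters are from RefSeq (GRCm38.p6), searched in the 250 bases before each start. A result chosen by the naming rule is not reported here.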

Additional observations from a re-analysis of the deposited data

Results flagged for a closer look

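Of 70 sets of 5 libraries checked for a library far from the others, 5 were singled out, and chance alone singles out about 1 in 20. BC030499 was at 4.08 CPM in labelled-knockout replicate 1, where the next lowest library of the group held 5.56 CPM. Pmch was at 144 CPM in labelled-knockout replicate 2, where the next highest held 111 CPM. Msl1 was at 154 CPM in S662D replicate 5, where the next lowest held 162 CPM. Npy was at 15.1 CPM in S662D replicate 2, where the next highest held 11.3 CPM. Bok was at 60.9 CPM in S662D replicate 1, where the next lowest held 71.2 CPM.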

How the results depend on the processing

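The count of 1325 genes called became 476 in a fit of the 10 libraries alone, 2725 against S662D replicates 2, 3 and 4, 29 against replicates 1 and 5, and 42 with the additional digit as a term. It became 690 with GC correction, 2130 and 43 with GC correction against S662D replicates 2, 3 and 4 and replicates 1 and 5, and 221 without labelled-knockout replicates 2 and 4. Leaving out 1 library at a time gave 521 to 1857. With the replicate number as a block in the 10 libraries it was 227; no library of either group correlated best with its own number (0 of 5 pairs). The fed S662D count of 847 became 2863 and 16 with and without the digit. Other scalings, filters and tools gave 907 to 1721. The cause of these changes was not tested.

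Over the named genes, 3058 values were recomputed: 2421 kept their side of the threshold, 605 lost the call, 24 gained it and 8 reversed. Among the 2421 are 48 in which a gene not called in either fit changed sign. Against S662D replicates 1 and 5, Gm10800 was at 0.42, and with GC correction there it was at 0.35, Srebf2 at 0.0017, Shank3 at 0.022, Olig1 at 0.011, Sh3bp4 at 0.011 and mt-Co3 at −0.0071. With GC correction against replicates 2, 3 and 4, Mff was at −0.039. Of 91 named genes called, 51 kept the call whichever of the 10 libraries was left out. Fits against 2 S662D libraries have few replicates, and genes near 1 CPM rest on few fragments.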
